A study of Mus musculus with 8 samples.

Results

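T cells harvested at 24 h after activation on plate-immobilized anti-CD3/CD28 antibodies (iAb) were compared with naive T cells, using 1 expression array from each condition. These are 2 of the 8 arrays in the series, and all 22180 genes measured by 23521 probe sets with a single gene symbol were considered. Both samples were CD3+ T cells from spleens and lymph nodes of C57BL/6J mice, purified by negative selection, which leaves the T cells untouched and removes other cells with magnetic beads. The iAb sample was stimulated for 3 h on the plate, washed and cultured for a further 21 h, whereas the naive sample was labelled as steady state and received no antibody. The other 6 arrays held T cells treated with latrunculin A (LatA, a toxin that blocks actin filament assembly), with soluble antibodies (sAb) or sAb+LatA at 3 h and 24 h, and with iAb at 3 h. The animals of the study were in general 8 weeks old, and the number of mice behind each array is not given in the sources used here. With 1 array a side there is no replicate error and no test, so every value below describes these 2 arrays, and their number limits the precision.

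A naive T cell is a small, quiescent cell that divides rarely and depends on survival signals. Engagement of the T cell receptor together with CD28 drives it through a large program: the cell first induces transcription factors and cytokines, then enlarges by building ribosomes, mitochondria, nucleotides and membranes, and then enters the cell cycle and acquires effector functions such as the granzymes of cytotoxic T cells. The genes that keep the naive cell quiescent and circulating through lymph nodes are turned down in the same period.

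After iAb at 24 h, 2655 of the 12522 genes compared were at least 1.5-fold higher than in naive T cells (21.2%) and 1621 were at least 1.5-fold lower (12.9%). A gene was compared when its level exceeded the background of either array. The 1447 chemosensory receptor genes, which serve smell and taste and are not known from T cells, gave that background as their 95th percentile, 4.73 on the log2 scale with iAb at 24 h and 4.99 in naive T cells. The median difference over the genes compared was 0.01 on the log2 scale, and the middle 50% of genes lay between -0.33 and 0.48. The same receptor genes gave the noise of this pair of arrays at background intensity, with an SD of 0.36, 3.73% at least 1.5-fold higher and 5.87% lower. The gap between genes and noise widened with the size of the difference: 1379 genes were at least 2-fold higher and 588 lower, against 12 and 8 chemosensory receptor genes, and at 4-fold 283 genes were higher and 96 lower, against 0 and 0 chemosensory receptor genes.

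The balance of higher and lower genes rests on the scaling of the arrays. With the values as deposited, 62.1% of the genes past 1.5-fold were higher with iAb at 24 h. Centring each array on the median of its expressed genes lowers every difference by 0.25 on the log2 scale, and 1843 genes were then higher and 3057 lower (37.6% higher). Of the 295 genes named by rule, none past 1.5-fold changed direction under this centring or under a second quantile normalization. List medians near 0 did so for 5 lists under centring and for 2 others, B cell markers (-0.01, and 0.16 normalized again) and the BCL-2 family (-0.07, and 0.08), under the quantile normalization.

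**Figure D1:**
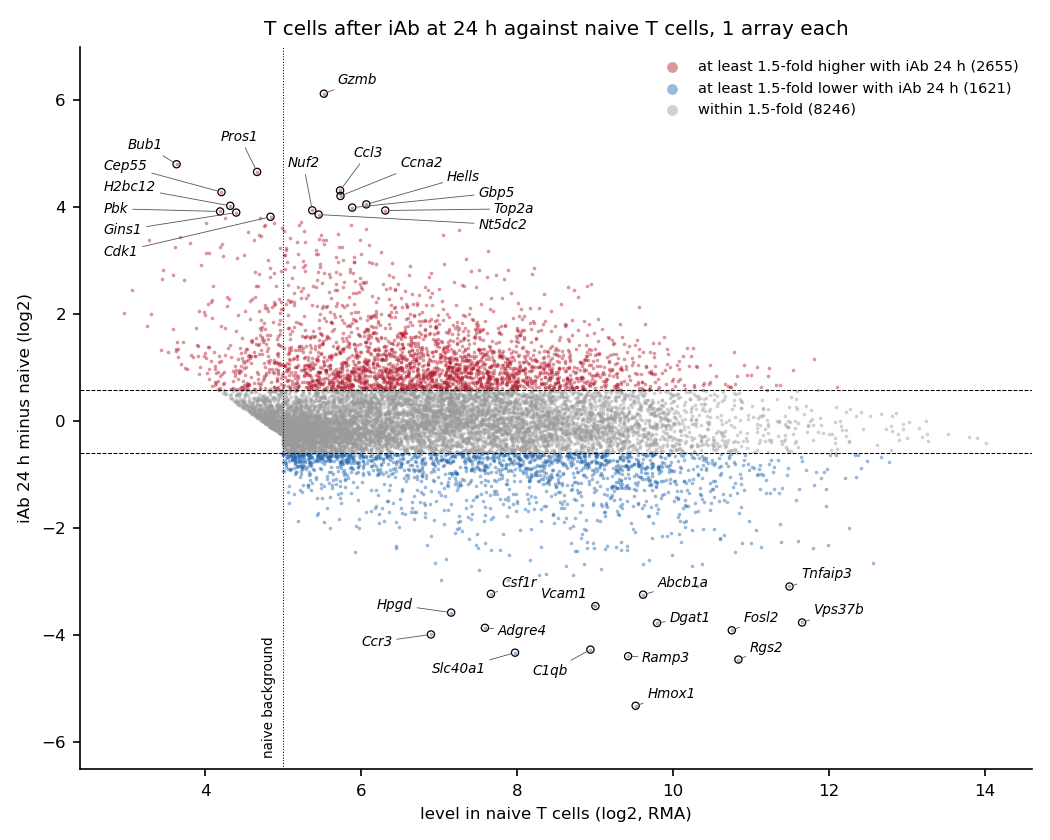
Difference between iAb at 24 h and naive T cells (log2, y axis) against the level in naive T cells (log2 RMA value, x axis) for the 12522 genes compared, with 1 array each. The dashed lines mark 1.5-fold, the dotted line marks the naive background at 4.99, and the 15 highest and 15 lowest genes are named. Gzmb stands apart at the top with a difference of 6.13 and Hmox1 at the bottom with -5.32.

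Both arrays carried the T cell program. All 11 measured genes of T cell identity were above background on both arrays, and their summed linear level was 17486 with iAb at 24 h and 17123 in naive T cells. The CD3 chain genes, which encode the signalling part of the T cell receptor, differed little: Cd3e had 11.76 with iAb at 24 h against 12 in naive T cells, Cd3d 9.71 against 9.92, and Cd3g 11.37 against 11.47. Of the 11 genes, 3 were at least 1.5-fold higher and 2 lower, and the coreceptor genes were among them, since Cd8a was higher with iAb at 24 h (11.28 against 9.82 in naive T cells), as was Cd8b1 (11.39 against 10.74), whereas Cd4 was lower (10.62 against 11.34). Thy1, the surface antigen of mouse T cells, was the third higher gene (10.07 against 9.03), and the costimulatory receptor Cd28 was the other lower one (9.16 against 9.77). In bulk RNA, a different number of cells of a type and a different amount of RNA per cell cannot be told apart.

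Most genes of macrophages, by contrast, were lower with iAb at 24 h than on the naive array, and many were then below background. Of 18 measured myeloid and dendritic markers, 9 were above background with iAb at 24 h and 14 in naive T cells, with summed linear levels of 681 and 2204. A list of macrophage genes added after the values were seen gave 11 and 24 of 25 above background, with sums of 716 and 4623. Of the genes above background on either array, 11 of 14 and 21 of 24 were at least 1.5-fold lower. Lyz2, Cst3, Ccr2, Marco, Timd4 and Clec4f stayed within 1.5-fold. Cd68 and Axl were lower but still well above background (6.45 with iAb at 24 h against 8.14 in naive T cells, and 6.44 against 8.31). The defining marker Csf1r, the receptor for macrophage colony-stimulating factor, had 4.44 with iAb at 24 h, below background, against 7.66 in naive T cells. C1qb, a chain of complement C1q, had 4.67 against 8.94, and Adgre1, which encodes the macrophage antigen F4/80, had 3.48 against 5.92. The iron-handling genes of macrophages behaved alike: Hmox1, which breaks down heme, had 4.20 against 9.52 (at least 27.7-fold lower), and Slc40a1, the iron exporter ferroportin, had 3.65 against 7.97 (at least 9.48-fold lower). The summed macrophage list on the other arrays was 4084 with LatA, 1666 with iAb at 3 h and 812 with sAb at 24 h. The part of such cells in the other differences was not tested. Without the macrophage, myeloid and immediate early genes, 2655 of 12450 genes were higher and 1565 lower. The 72 genes removed held 56 lower and 0 higher genes, so the higher count could not change. Removing listed genes cannot show the part of such cells in the other differences.

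Markers of other lymphocytes were mixed. B cell markers above background numbered 10 of 16 with iAb at 24 h and 7 in naive T cells, with summed levels of 809 and 1141. Cd79a, a chain of the B cell receptor, had 5.53 on both. Of 11 above background on either array, 2 were higher and 4 lower. Higher were Ms4a1 (5.92 with iAb at 24 h against 4.82 in naive T cells) and Fcer2a (5.32 against 4.70), with naive levels below background. Lower were Blk (4.21, below background, against 5.16) and the class II genes H2-Ab1 (7.39 against 8.53), H2-Aa (6.19 against 7.37) and H2-Eb1 (6.51 against 7.16). B cells share class II genes with dendritic cells and macrophages, and the summed levels include them. Of 6 measured NK markers, Ncr1, Klrb1c and Klre1 were below background on both arrays. The other 3, which activated or memory T cells can also express, differed from one another: Klrd1 had 7.78 with iAb at 24 h against 9.92 in naive T cells, Klrk1 had 6.46 against 6.54, and Eomes had 9.22 against 6.89. All 10 markers of regulatory T cells were above background on both arrays, with 3 higher, 5 lower and a median of -0.53. Foxp3, their master regulator, had 9.47 with iAb at 24 h against 9.68 in naive T cells. Itgae and Ikzf2 were among the lower genes (5.24 against 7.29 and 7.42 against 8.82), and Gpr83 and Il2ra among the higher ones (8.96 against 5.23 and 11.09 against 8.21).

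**Figure D2:**
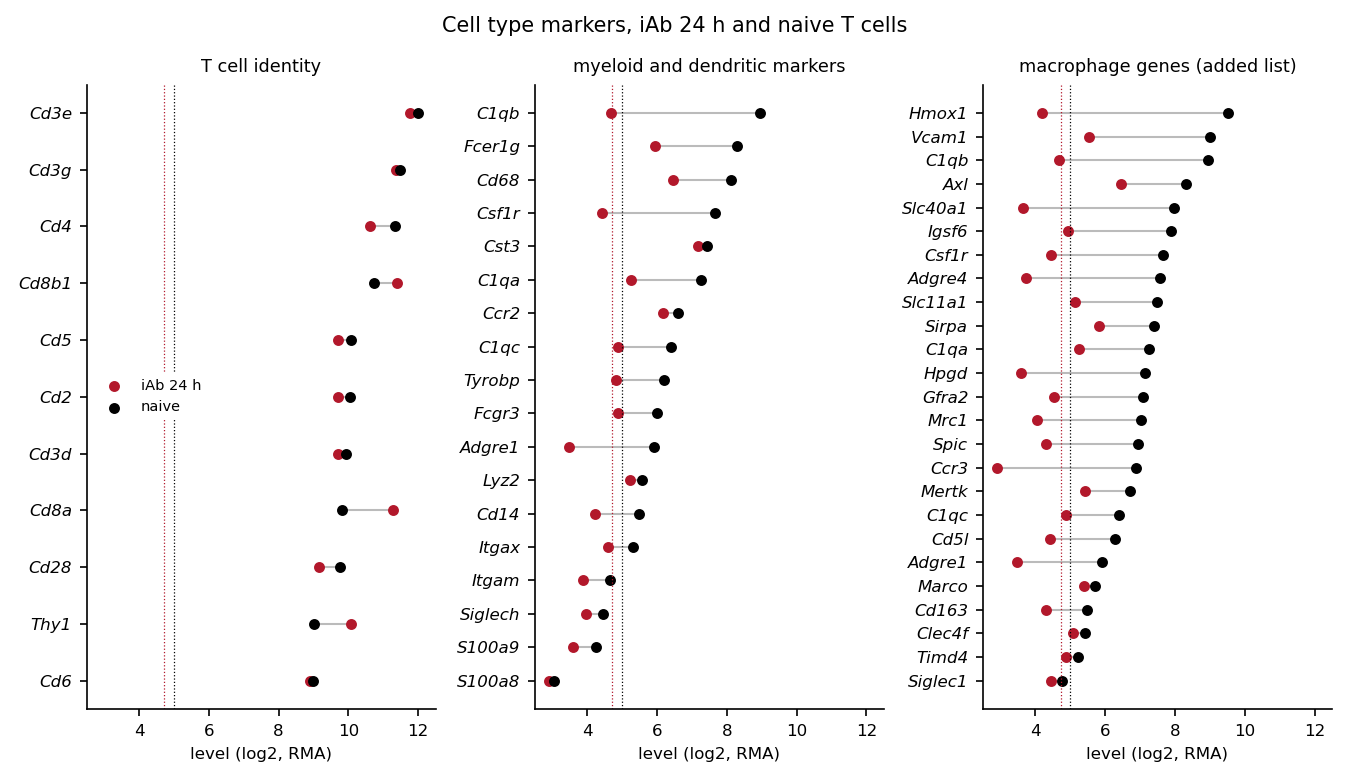
Levels (log2 RMA value) of T cell identity genes, myeloid and dendritic markers and the added macrophage genes with iAb at 24 h (red) and in naive T cells (black), with dotted lines at the background of each array. All 11 T cell genes lie above background on both arrays, with 3 higher and 2 lower by at least 1.5-fold, while C1qb, Csf1r and Hmox1 lie below background with iAb at 24 h and far above it in naive T cells.

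The largest difference of all belonged to Gzmb. It encodes granzyme B, the protease with which cytotoxic T cells kill their targets. Its level was 11.65 with iAb at 24 h and 5.52 in naive T cells, 69.9-fold higher. On the series of arrays it was 5.36 with LatA, then 5.80 for sAb, 7.81 for sAb+LatA and 9.06 for iAb at 3 h, and 10.91 for sAb and 11.62 for sAb+LatA at 24 h, so every 24 h array exceeded every 3 h array. Pros1, which encodes protein S, a cofactor of anticoagulation and a ligand of TAM receptors, had 9.33 with iAb at 24 h against 4.66 in naive T cells, at least 20.2-fold higher. Ccl3, a chemokine that attracts other leukocytes, had 10.05 against 5.73 (19.9-fold), although its level with iAb at 3 h was still higher, at 11.72. Gbp5, an interferon-induced GTPase that attacks intracellular microbes, had 9.88 against 5.88 (16-fold). Nt5dc2, whose function in T cells is little known, had 9.32 against 5.45.

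Cell cycle genes made up most of the rest of the upper end, where 8 of the 15 highest and 59 of the 100 highest genes belonged to the lists of mitosis, G1 and S phase, DNA replication, DNA repair or histones. In that order, these lists held 85, 24, 56, 26 and 13 of the 12522 genes compared. The ranks use measured differences and not bounds. In the same order, 31, 2, 4, 8 and 6 of the listed genes had naive levels at or below background. Bub1, a kinase of the spindle checkpoint, had 8.44 with iAb at 24 h against 3.63 in naive T cells, at least 10.9-fold higher. Cep55, needed for the final cut between daughter cells, was at least 11.4-fold higher (8.50 against 4.21), and Pbk, a mitotic kinase, at least 8.72-fold (8.12 against 4.19). Ccna2, the cyclin of S phase and G2, had 9.95 against 5.73 (18.6-fold). Nuf2 of the outer kinetochore had 9.32 against 5.37 (15.4-fold). Hells, a chromatin remodeller of dividing lymphocytes, had 10.12 against 6.06 (16.6-fold), and Gins1, a subunit of the replicative helicase complex, was at least 9.92-fold higher (8.30 against 4.40). Cep55 and Hells stood on none of the lists. The core histone gene H2bc12 was at least 10.3-fold higher (8.35 against 4.32). For 7 of the 15 highest genes the naive level was at or below background, and their folds are therefore bounds. Among genes above background on both arrays, the 15 highest also took in Gpr83, Kif11, Rrm2, Uhrf1, Cdk6, Gbp11 and Tpx2.

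At the lower end, 8 of the 15 genes were on the macrophage or myeloid lists, and 3 were immediate early genes. The macrophage and immediate early lists were added after the values were seen, so these counts are not a test. Of the 8 genes, only C1qb and Csf1r were on the myeloid list written before. Beside Hmox1, Slc40a1, C1qb and Csf1r the 8 were Adgre4, Hpgd, Vcam1 and Ccr3, with levels of 3.73, 3.58, 5.55 and 2.91 with iAb at 24 h against 7.59, 7.15, 9.0 and 6.89 in naive T cells. The remaining genes were above background on both arrays. Rgs2, which shortens signalling by G protein-coupled receptors, had 6.38 against 10.84 (21.9-fold lower), and Ramp3, which modifies calcitonin-family receptors, had 5.03 against 9.42 (21-fold lower). Rgs2 has several probe sets, and its difference was -3.38 as their mean in place of -4.45. Fosl2, a subunit of the transcription factor AP-1, had 6.85 against 10.75 (15-fold lower), and Tnfaip3, which encodes A20, an inhibitor of NF-kB signalling, had 8.40 against 11.49 (8.49-fold lower). Dgat1, which makes triglycerides, was 13.6-fold lower (6.02 against 9.79). Vps37b, a subunit of the endosomal sorting machinery ESCRT-I, was 13.5-fold lower (7.89 against 11.65), and the drug efflux pump Abcb1a was 9.44-fold lower (6.38 against 9.61).

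**Figure D3:**
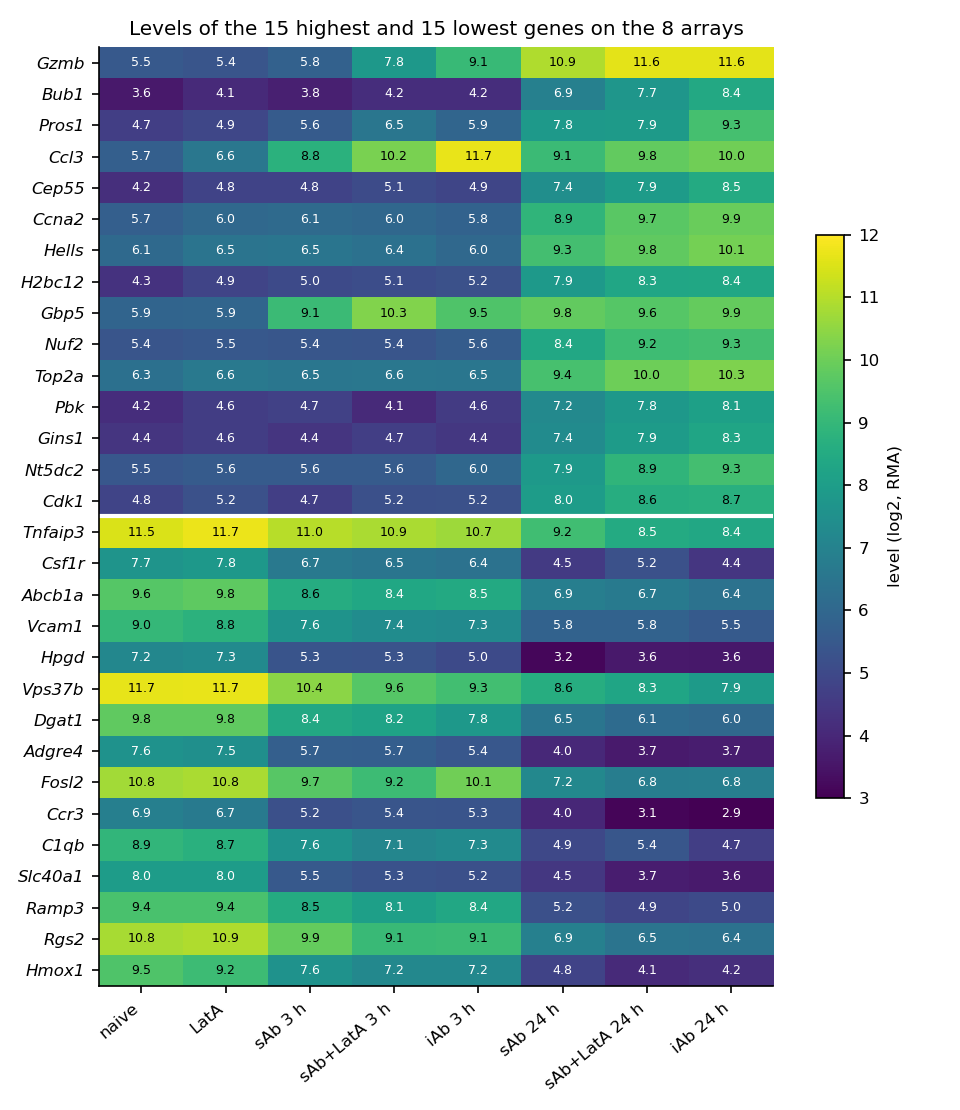
Levels (log2 RMA value, colour and numbers) of the 15 highest and 15 lowest genes on the 8 arrays, ordered by time with 1 array per column, to be read along each row. Cell cycle genes such as Bub1 and Cdk1 lie low on the 5 arrays up to 3 h and high on the 3 arrays at 24 h, while Hmox1 and Rgs2 lie highest on the naive and LatA arrays.

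The machinery of mitosis was the gene list with the highest median. Of 85 genes above background, 80 were at least 1.5-fold higher with iAb at 24 h and 1 was lower, with a median difference of 2.69, against 21.2% higher, 12.9% lower and a median of 0.01 over all genes compared. For 31 of the 85 the naive level was at or below background, and with those levels set to background 78 were higher and the median was 2.40. With iAb at 3 h the median was -0.03. Top2a, which untangles replicated chromosomes, had 10.25 against 6.31 (15.4-fold higher), and Cdk1, the kinase that starts mitosis, had 8.66 against 4.84 (at least 12.7-fold higher). On the 3 h arrays Cdk1 had 4.68 for sAb, 5.19 for sAb+LatA and 5.22 for iAb, and at 24 h 7.99 for sAb and 8.61 for sAb+LatA. One gene went the other way: Cenpa, the histone variant that marks centromeres, had 7.48 with iAb at 24 h against 8.76 in naive T cells, and 6.82 with iAb at 3 h.

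The promoters of these genes share short sequences that are known from other cell cycle studies: the CCAAT box, bound by the factor NF-Y, and the element TTTGAA, known as the cell cycle genes homology region and read by the MuvB complexes. RefSeq promoters (build GRCm38.p6, 300 bases each, 250 of them before the transcription start) were matched by symbol for 70 of the 85 mitosis genes, which gave 76 promoters. CCAAT on either strand was found in 71.1% of them and TTTGAA on either strand in 61.8%, while 38 held both. Over all 32851 promoters in the table the shares were 37.4% for CCAAT, 17.9% for TTTGAA and 6.95% for both. Over the genes compared they were 37.2% for CCAAT, 12% for TTTGAA and 4.81% for both, an incomplete background because promoters were matched for 9824 of the 12522 genes. CCAAT was not particular to the mitosis list. It was in 91.7% of 12 promoters of MHC class I and antigen processing genes and 83.3% of 18 of cholesterol synthesis genes. Histone genes had it in 76.9% of 13 promoters and endoplasmic reticulum chaperone genes in 74.1% of 27. Other lists had smaller shares, such as 27.5% of 51 promoters of cytosolic ribosomal protein genes. A match is only a match of letters, and no binding was measured. The stretches upstream of Cdk1 (chr10:69352913-69353162 on the minus strand) and Top2a (chr11:99024190-99024439 on the minus strand) are shown because both genes are among the 15 highest and hold both elements, with CCAAT (or ATTGG, its reverse complement) and TTTGAA (or TTCAAA) in capitals.
Cdk1: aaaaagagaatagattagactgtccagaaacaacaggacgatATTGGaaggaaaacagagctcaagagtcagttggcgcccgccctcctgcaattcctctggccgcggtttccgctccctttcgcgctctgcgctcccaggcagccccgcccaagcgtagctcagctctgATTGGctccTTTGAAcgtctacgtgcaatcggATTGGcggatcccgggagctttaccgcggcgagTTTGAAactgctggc
Top2a: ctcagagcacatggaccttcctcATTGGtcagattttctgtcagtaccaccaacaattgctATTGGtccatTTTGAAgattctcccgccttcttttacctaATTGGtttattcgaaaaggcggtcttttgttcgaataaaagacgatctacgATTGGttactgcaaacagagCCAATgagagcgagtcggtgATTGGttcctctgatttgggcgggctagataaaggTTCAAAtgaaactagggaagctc
In Cdk1 a TTTGAA begins 15 bases before the start with an ATTGG 48 bases before it, and a second such pair begins at 71 and 80 bases. In Top2a a TTCAAA begins 23 bases before the start, with an ATTGG at 58 and a CCAAT at 78 bases.

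Genes of DNA replication were higher in 51 of 56 cases and lower in 0, with a median of 1.94 (0.02 with iAb at 3 h). Gins1, described above, had the largest measured difference, with a naive level below background. Cdc6, which loads the MCM helicase onto origins, had 8.95 with iAb at 24 h against 5.55 in naive T cells (10.5-fold higher). Uhrf1, which guides DNA methylation to newly made strands, had 9.65 against 6.06 (12-fold), and Ticrr, which helps fire origins, was at least 9.06-fold higher. All 8 Mcm genes on the list were higher, by 1.59 for Mcm4 to 2.94 for Mcm10. The clamp gene Pcna had a smaller difference of 1.23, and Dbf4 and Donson, at -0.32 and -0.23, stayed within 1.5-fold.

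Cyclin-dependent kinases and E2F factors, which open S phase, were higher for 17 of 24 genes and lower for 3 (median 1.77). Cdk6, the kinase of G1, had 10.83 against 7.25 (11.9-fold higher), the transcription factor Mybl2 had 8.72 against 5.86 (a difference of 2.86, or 1.94 as the mean of its probe sets), and the E2F partner Tfdp1 had 10.34 against 7.51. E2f8 was at least 12-fold higher, at 8.58 against 4.88. The 3 lower genes were the CDK inhibitors Cdkn1b (p27, 8.60 against 10.15) and Cdkn1a (p21, 6.54 against 7.42), and Myb (9.31 against 10.47). Replication-dependent histone genes above background were higher in 11 of 13 cases and lower in 0 (median 1.97), but 6 of the 13 had naive levels at or below background, and with those set to background 8 were higher and the median was 1.61. Of the 20 measured, 7 did not pass the background on either array. Homologous recombination and Fanconi genes, which repair broken and crosslinked DNA, were higher in 22 of 26 and lower in 0 (median 1.73). For 8 of the 26 the naive level was at or below background, and with those set to background 21 were higher and the median was 1.63. The checkpoint kinase Chek1 was at least 12.2-fold higher, Rad54l at least 8.15-fold, and Fancd2 had 8.25 against 5.04.

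The sequence GCGGGAA, a form of the E2F site, was present on either strand in 35.6% of 59 promoters of the DNA replication genes and in 41.7% of 24 promoters of the repair genes, against 4.6% of all promoters and 8.06% of those matched to the genes compared. TTTCGCGC, a second form, was in 16.9% of the replication promoters but in 0 of the 24 repair promoters. Its shares were 0.323% of all promoters and 0.656% of those of the genes compared. The upstream stretch of Cdc6 (chr11:98907901-98908150 on the plus strand) is shown as the promoter of the licensing factor with the largest difference above background on both arrays, and its single GCGGGAA, 138 bases before the start, is in capitals.
Cdc6: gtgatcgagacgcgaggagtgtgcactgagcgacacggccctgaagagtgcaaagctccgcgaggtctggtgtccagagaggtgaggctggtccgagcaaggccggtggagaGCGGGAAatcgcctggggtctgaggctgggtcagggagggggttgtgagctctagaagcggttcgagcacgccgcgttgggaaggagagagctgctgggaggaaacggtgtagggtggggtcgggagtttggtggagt

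Enzymes that supply the precursors of DNA were higher as well. Of 39 nucleotide synthesis genes, 24 were higher and 0 lower (median 1.08). Rrm2, the cell cycle-regulated subunit of ribonucleotide reductase, had 8.86 with iAb at 24 h against 5.20 in naive T cells (12.7-fold higher), and its partner Rrm1 had 10.46 against 7.73. Dut, which keeps uracil out of DNA, had 10.01 against 7.06, a difference of 2.95 (2.07 as the mean of its probe sets). Folate and serine enzymes, which provide one-carbon units for purines and thymidine, were higher for 12 of 16 and lower for 1 (median 1.81), and here the 3 h median with iAb was already 1.45. Shmt1 had 8.84 against 5.53 and its mitochondrial counterpart Shmt2 had 11.17 against 8.65. The serine synthesis enzyme Psat1 had 8.89 against 5.90. Aldh1l1, which burns one-carbon units, was the lower gene, at 5.07 against 5.80.

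**Figure D4:**
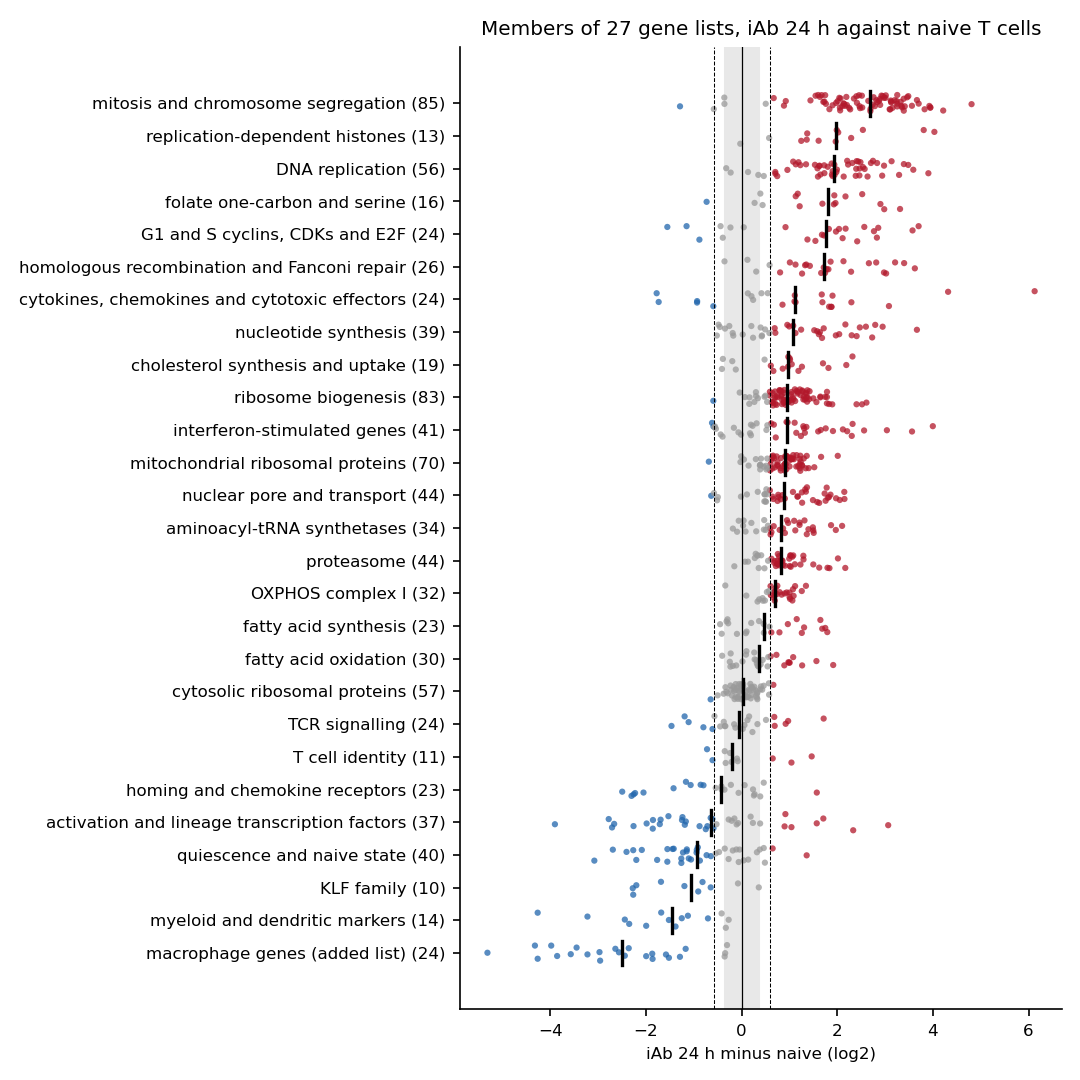
Differences between iAb at 24 h and naive T cells (log2, x axis) for the members of 27 gene lists, 1 point per gene above background, with the number of genes in brackets and the list median as a black bar. Red and blue points are at least 1.5-fold higher and lower, dashed lines mark 1.5-fold, and the grey band is 1 SD of the chemosensory receptor genes (0.36). Mitosis and DNA replication lie at the top with medians of 2.69 and 1.94. The macrophage list, added after the values were seen, lies at the bottom with -2.51.

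Ribosome biogenesis, the assembly of ribosomes in the nucleolus, was higher for 71 of 83 genes and lower for 1, with a median of 0.94, while the median was 1.41 with iAb at 3 h. Rpf2, which places the 5S particle in the large subunit, had 9.80 with iAb at 24 h against 7.19 in naive T cells (6.10-fold higher), and 9.86 with iAb at 3 h. Dkc1, the pseudouridine synthase of ribosomal RNA, had 9.99 against 7.48, and Rrp1b had 8.33 against 5.93. The kinase Riok1 was the lower gene, at 8.85 against 9.45. The ribosomal proteins themselves did not share this pattern: of 57 cytosolic ribosomal protein genes 1 was higher and 1 lower, and their median was 0.03 (-0.21 after centring). RNA polymerase I and III genes had a median of 0.27, with 7 of 29 higher (24.1%) and 2 lower (6.90%). The higher share was close to the 21.2% over all genes compared, where 12.9% were lower. Polr1b, the second largest subunit of polymerase I, had the largest difference on this list, at 8.07 against 6.12. Maf1, which represses polymerase III, was lower at 8.28 against 9.08. The other lower gene, Taf1d (-0.63), had 0.79 as the mean of its probe sets.

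The E-box CACGTG, to which Myc and related factors bind, was in 23.8% of 80 promoters of 72 ribosome biogenesis genes, against 7.15% of all promoters and 9.81% of those matched to the genes compared. It was also in 11 of 44 promoters of autophagy and lysosome genes, 20.9% of those of the immediate early genes and 3 of 8 of KLF genes, lists with more lower than higher members. Myc itself had 10.48 with iAb at 24 h against 8.77 in naive T cells, and 11.72 with iAb at 3 h. The upstream stretch of the Rpf2 promoter that holds the motif (chr10:40246980-40247229 on the minus strand) is shown as that of the biogenesis gene with the largest difference, with CACGTG in capitals 26 bases before the start. The table holds 2 promoters for Rpf2.
Rpf2: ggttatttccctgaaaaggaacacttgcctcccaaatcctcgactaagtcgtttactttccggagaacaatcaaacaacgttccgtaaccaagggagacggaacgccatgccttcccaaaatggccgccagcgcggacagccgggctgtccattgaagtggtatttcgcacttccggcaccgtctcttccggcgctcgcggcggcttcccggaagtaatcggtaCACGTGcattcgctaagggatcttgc

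Translation and protein quality control followed with smaller differences. Aminoacyl-tRNA synthetases, which charge tRNAs, were higher for 22 of 34 and lower for 0 (median 0.83), led by Wars at 10.15 against 8.05. Translation factors had 21 of 48 higher and 0 lower (median 0.52), led by Eef1e1 at 10.73 against 8.85. Proteasome genes had 33 of 44 higher and 0 lower (median 0.82). The assembly chaperone Psmg1 had 7.99 against 5.82, and the immunoproteasome subunits Psmb10 and Psmb9 had 10.05 and 8.97 against 8.21 and 7.18. Cytosolic chaperones were higher for 21 of 28, but the stress-inducible Hsp70 genes Hspa1a and Hspa1b were the 2 lower ones and lay below background with iAb at 24 h (4.18 and 4.32, against 5.60 and 6.23 in naive T cells). In the endoplasmic reticulum 10 of 33 genes were higher and 4 lower (median 0.42). Sdf2l1, a cofactor of the chaperone BiP, had 9.11 against 6.41, whereas the stress sensors Eif2ak3 (PERK) and Ern1 (IRE1) were lower, at 6.75 against 8.71 and 5.88 against 7.35. Nuclear pore and import genes were higher for 30 of 44 and lower for 1 (median 0.88), and both Nup43 and Nup133 had a difference of 2.15.

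Mitochondrial genes were higher across several systems. Of 70 mitochondrial ribosomal protein genes, 54 were higher and 1 lower (median 0.90, and 0.51 with iAb at 3 h), with Mrpl42 at 7.48 against 5.47 and Mrpl12 at 7.81 against 6.15. Complex I of the respiratory chain had 23 of 32 genes higher and 0 lower (median 0.70), and complexes II to V had 21 of 38 higher and 0 lower (median 0.64). Cycs, which encodes cytochrome c, had 11.03 against 9.75. Import and dynamics genes were higher for 18 of 34 and lower for 0, led by the chaperonin Hspd1 at 10.75 against 8.56. The TCA cycle list had 14 of 31 higher and 1 lower (median 0.52). Its NADP-dependent isocitrate dehydrogenase Idh2 had 8.72 with iAb at 24 h against 6.96 in naive T cells and 6.19 with iAb at 3 h. Glucose uptake and glycolysis genes were higher for 12 of 21 and lower for 1 (median 0.71). Hexokinase Hk2 had 7.53 against 5.23 and the triose phosphate isomerase Tpi1 had 9.84 against 7.29, while the lactate exporter Slc16a3 was lower at 4.89 against 6.52.

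Lipid genes split by function. Cholesterol synthesis and uptake was higher for 14 of 19 genes and lower for 0 (median 0.98, and 0.40 with iAb at 3 h). Lss, which closes the sterol ring, had 8.16 with iAb at 24 h against 5.85 in naive T cells (4.98-fold higher), and Sqle, the enzyme just before it, had 8.09 against 5.90. The cholesterol efflux list went the other way, with 5 of 6 lower and 0 higher (median -1.0). The exporter Abca1 had 6.00 against 8.04. Mylip, which acts on uptake by degrading the LDL receptor, had 7.99 against 9.54. Apoe, also on that list and abundant in macrophages, had 6.06 against 7.13. The part of macrophages in the differences of this list was not tested. Fatty acid synthesis was higher for 10 of 23 genes and lower for 0 (median 0.46). The desaturase Fads1 had 8.23 against 6.58 and the acyl-CoA synthetase Acsl5 had 9.70 against 8.01. Fatty acid oxidation was also higher for 10 of 30 and lower for 0 (median 0.36), with a 3 h median of -0.30. Hadh, a dehydrogenase of the oxidation spiral, had 9.34 with iAb at 24 h against 7.42 in naive T cells and 6.68 with iAb at 3 h.

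Amino acid and polyamine genes were mixed, and their list medians of 0.14 and 0.01 were -0.11 and -0.24 after centring. Srm, which makes spermidine, had 10.81 with iAb at 24 h against 7.62 in naive T cells (9.10-fold higher), but Odc1, the first enzyme of the pathway, was lower at 9.65 against 10.62. Among targets of the stress factor ATF4, Asns (asparagine synthetase) was at least 4.33-fold higher at 7.10 against 4.88, while Sesn2, Trib3 and Ddit3 were lower by 1.29, 0.89 and 0.74 on the log2 scale.

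Surface receptors and ligands of activation had a median of only 0.06 with iAb at 24 h (-0.18 after centring), against 1.85 with iAb at 3 h. Both comparisons use the same naive array. The list held 9 of 24 genes higher and 6 lower. Il2ra, the high-affinity chain of the IL-2 receptor, and Tfrc, the transferrin receptor that supplies iron, had 11.09 and 9.66 with iAb at 24 h against 8.21 and 6.89 in naive T cells. Crtam, an adhesion receptor of activated CD8 T cells, was higher at 8.54 against 5.18 and reached 10.36 at 3 h. Cd40lg, the helper ligand for B cells, was lower at 24 h, with 6.18 against 8.18 in naive T cells, after 10.17 at 3 h. The early activation antigen Cd69 was lower as well, at 9.73 against 10.42, after 12.12 at 3 h. Inhibitory receptors were divided: Lag3 was higher (7.92 against 5.61), and Pdcd1 (PD-1) and Tigit were lower (6.69 against 8.97 and 6.84 against 8.86).

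**Figure D5:**
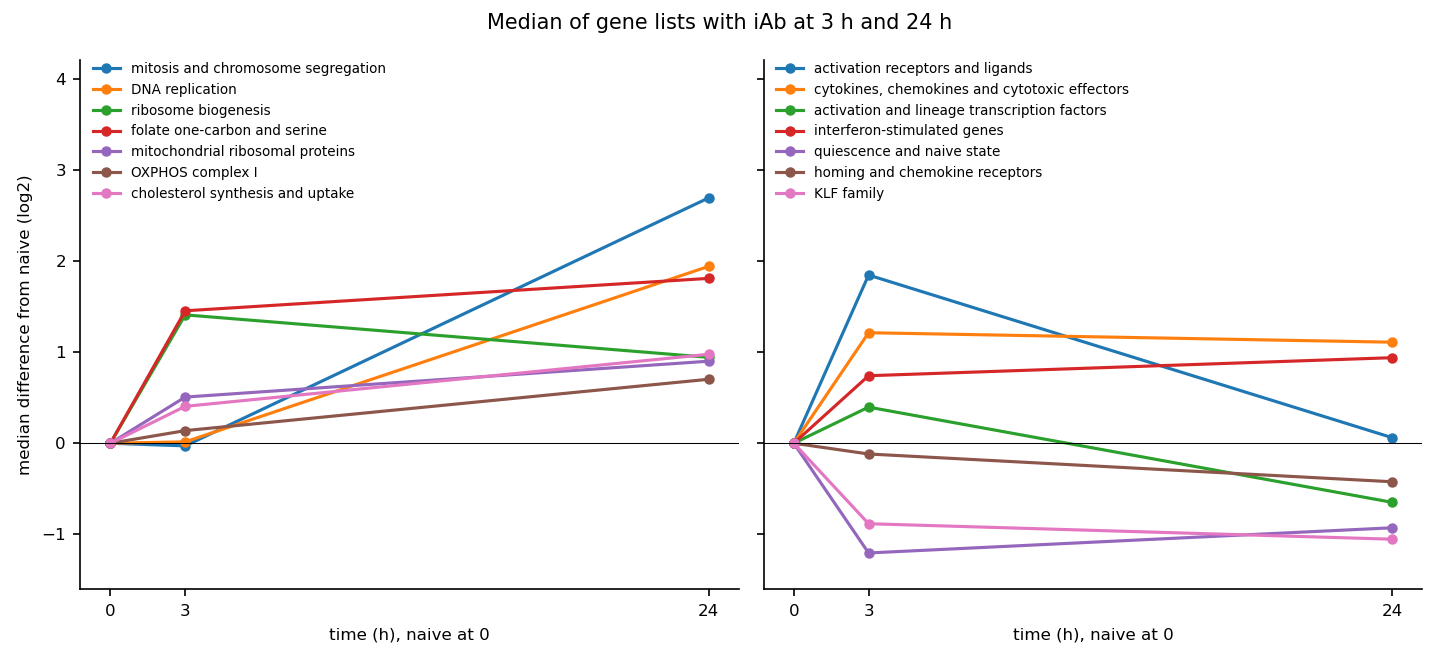
Median difference from the naive array (log2, y axis) of 14 gene lists with iAb at 3 h and 24 h (x axis, naive set at 0), with 1 array per time. Ribosome biogenesis and activation receptors are higher at 3 h than at 24 h (1.41 and 0.94, 1.85 and 0.06), while mitosis and DNA replication move between 3 h and 24 h.

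Cytokines and effectors were higher for 14 of 24 genes and lower for 5 (median 1.11, or 0.80 with levels at background set to it). Besides Gzmb and Ccl3 these included the lymphotoxin gene Lta (8.76 against 5.68, 8.46-fold higher) and Ifng, the macrophage-activating interferon (7.25 against 4.95, at least 4.77-fold higher). The lower ones were Ccl5 (8.28 against 10.06), Fasl (5.68 against 7.42), Prf1, the pore-forming partner of granzymes (7.15 against 8.08), Gzmk (4.76 against 5.35) and Il10, which was below background with iAb at 24 h. Gzmb and Prf1 thus went in opposite directions. Among lineage factors, Tbx21 (T-bet) was higher at 8.31 against 6.74, Eomes at 9.22 against 6.89, and Irf8 at 8.97 against 5.90. They belong to a list of activation and lineage factors in which 7 of 37 genes were higher and 21 lower. Irf8 has several probe sets, whose mean gave a difference of 2.03 in place of 3.06.

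Interferon-stimulated genes were higher for 24 of 41 and lower for 2 (median 0.94, and 0.74 with iAb at 3 h). All 8 Gbp genes on the list, which are guanylate-binding GTPases, were higher, by 1.35 for Gbp9 to 4.0 for Gbp5. Iigp1, an interferon-induced GTPase of another family, had 10.38 against 7.35. The 2 lower genes, Rsad2 and Irf7, belong to the type I interferon response and had 5.16 against 5.78 and 7.69 against 8.28. Socs1 and Cish, feedback inhibitors of cytokine signalling, had 8.48 and 8.21 against 6.57 and 6.56, and Socs2 was at least 10.9-fold higher at 8.44 against 4.77 (a difference of 2.24 as the mean of its probe sets).

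Transcription factors of activation and lineage were lower for 21 of 37 genes and higher for 7 (median -0.65, against 0.40 with iAb at 3 h). The AP-1 genes Fos and Fosb had 4.73 and 5.92 with iAb at 24 h against 7.51 and 8.63 in naive T cells. The naive array itself held these genes at high levels, and the LatA array alike, as Fosl2 shows with 10.75 and 10.85. A list of immediate early genes added after the values were seen was lower for 29 of 39 and higher for 0 (median -1.36), while its median with iAb at 3 h was 0.14. MAP kinase feedback genes were among them, with Dusp1 at 7.49 against 9.98 and Dusp5 at 8.20 against 10.24. What set these levels on the naive and LatA arrays was not tested.

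Genes of the naive and quiescent state were lower for 24 of 40 and higher for 2 (median -0.93, and -1.20 with iAb at 3 h). St8sia6, a sialyltransferase, had 7.23 with iAb at 24 h against 10.31 in naive T cells (8.46-fold lower). Tob1, which restrains proliferation, had 6.92 against 9.33, and Klf2, which maintains quiescence and trafficking, had 8.73 against 10.99. KLF factors in general were lower for 8 of 10 and higher for 0 (median -1.05), among them Klf3 at 8.40 against 10.61 and Klf6 at 8.60 against 10.88. The list of homing and chemokine receptors had 10 of 23 genes lower and 1 higher. The IL-7 receptor Il7r, on this list although it is not a homing receptor, had 9.68 against 11.98. The egress receptor S1pr1 had 9.37 against 11.60, Cxcr4 had 7.84 against 10.10, and Ccr8 had 5.39 against 7.89. Ccr4 was the higher one, at 7.13 against 5.56. For S1pr1 and Il7r the levels were lower still with iAb at 3 h, at 8.25 and 8.93.

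Several systems held genes in both directions, with medians close to 0. Over all genes compared, 21.2% were higher and 12.9% lower. Actin, ERM and microvillus genes were close to both shares (19.6% and 13.7%). For T cell receptor signalling, the BCL-2 family and glycosylation the higher shares were also close (20.8%, 22.2% and 20.8%). Their lower shares were larger (20.8%, 22.2% and 33.3%). Autophagy and lysosome genes had 4.65% higher and 30.2% lower. T cell receptor signalling had 5 of 24 genes higher and 5 lower: the phosphatase Ptpn6 (SHP-1) had 10.02 against 8.30 and Vav1 9.50 against 8.53, whereas the ubiquitin ligase Cblb had 10.10 against 11.57. The BCL-2 family and death receptors had 6 of 27 higher and 6 lower. The survival factor Bcl2 had 11.46 against 9.88, a difference of 1.58 (1.09 as the mean of its probe sets). The p53 target Pmaip1 (NOXA) had 6.08 against 7.27. Actin, ERM and microvillus genes, which build the surface protrusions of T cells, had 10 of 51 higher and 7 lower (median 0.25), and genes of the actin system were found in both directions. Actb, which encodes the main cytoplasmic actin, had 11.32 against 10.31, and Srf, the transcription factor of actin genes, had 8.30 against 7.12, whereas the WAVE subunit Wasf2 had 8.50 against 9.69 and the crosslinker Actn1 had 10.34 against 11.28. The largest differences on this list were of tubulins, which form microtubules and not microvilli: Tuba1b had 8.67 against 5.89 and Tubb2a had 6.54 against 8.90. Autophagy and lysosome genes were lower for 13 of 43 and higher for 2 (median -0.22), including the initiating kinase Ulk1 at 7.60 against 9.14 and the cargo receptor Sqstm1 at 9.18 against 10.65. Sialyltransferases and related glycosylation genes had 5 of 24 higher and 8 lower (median 0.00, and -0.24 after centring), with St3gal4 at 7.71 against 5.56.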

How the data were processed

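The data are 8 Affymetrix Mouse Gene ST 2.0 arrays, 1 per condition. The authors applied robust multi-average normalization to all arrays. Deposited values, 1 for each probe set of an array, run between 1.20 and 14.3 and were read as log2, a scale the methods do not state. The array medians ran from 4.74 to 4.94. Of 41345 probe sets, 23521 are listed with 1 gene symbol, 1820 with several and 16004 not listed, and only the first were used. Each of the 1082 genes with several was represented by its brightest probe set, judged by the mean of the 8 arrays. The iAb 24 h value minus the naive value was taken for each gene, and 1.5-fold was the threshold. A level at or below background gives a bound, so its fold was taken against the background and written as at least. The genes named are the 15 highest and 15 lowest, the members of each list that differ most (up to 4 a list), the defining markers, and members against the direction of their list by 1.5-fold. Others were named after their values were seen. The 53 lists were written from general knowledge with earlier results of these data known, as was the choice of comparison, and 2 lists were added later. Python 3.11.15, numpy 2.4.6 and pandas 2.3.3 were used, and the counting was tested on simulated data. The alternatives were another background or none, centring, a second quantile normalization, the mean of a gene's probe sets, the LatA array for the naive one, a 2-fold threshold and, chosen after seeing the data, levels at background set to it and counts without macrophage, myeloid and immediate early genes. Promoter sequences are from RefSeq (GRCm38.p6). No build is given for the array values in the sources used here.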

Additional observations from a re-analysis of the deposited data

Results flagged for a closer look

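Among the 295 genes named by rule, 9 lay at least 1.5-fold from naive T cells in opposite directions with iAb at 3 h and at 24 h. Each time has 1 array and both share the naive array, so the difference between the times was not tested. Of these, 6 were higher at 3 h and lower at 24 h, all of them surface or secreted products of activated T cells. On the log2 scale against naive T cells, Ccr8 was at 1.82 at 3 h and -2.50 at 24 h, Cd40lg at 1.98 and -2.0, Cd83 at 0.85 and -1.11, Tnfsf11 (RANKL) at 2.34 and -1.08, Prf1 at 1.14 and -0.93, and Cd69 at 1.71 and -0.69. The other 3 were lower at 3 h and higher at 24 h: the mitochondrial enzyme genes Idh2 (-0.77 and 1.77) and Hadh (-0.75 and 1.91), and the histone gene H2bc3 (-0.71 and 2.29).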

How the results depend on the processing

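The threshold and the scaling moved the counts most. At 2-fold, 1379 genes were higher and 588 lower (70.1% higher), and after centring 3057 were lower than in naive T cells and 37.6% of the genes past 1.5-fold were higher. That share was 57.2% without a background filter, 66.7% with background at the 99th percentile and 60.0% against the LatA array, which is another condition and not a replicate. Of 55 list medians, 11 changed sign under some alternative, the largest of them 0.19 in size, and none of the medians past 1.5-fold did so. Cytokines and effectors had a median of 0.59 without the filter and 1.69 at the 99th percentile. Without the filter, histones had 1.37, folate genes 1.45 and erythroid and platelet markers -0.47, the last also with genes above background on both arrays. Histones had 1.61 with levels at background set to it. B cell markers had -0.59 at the 99th percentile and also with genes above background on both arrays, and macrophage genes had -2.96 and -1.58 in these settings. As the mean of their probe sets, Dgkz (0.68 with the brightest alone) had -0.29 and Taf1d (-0.63) had 0.79. For these moves the cause was not tested, beyond the change in the genes counted. No paired analysis was possible because each condition has 1 array. Signal over background limits the genes with low levels: 40 of the 295 named genes have only a bound.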
